A study of Mus musculus with 11 samples.

Results

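Cells that give rise to connective tissue, fat and the muscle coat of blood vessels lie beside the satellite cells of skeletal muscle, and 10 genes that mark them were followed through postnatal growth in sorted satellite cell preparations. The fibro-adipogenic genes were Pdgfra, Thy1, Gsn, Dpt and Col15a1, and the mural genes, of pericytes and smooth muscle, were Pdgfrb, Rgs5, Acta2, Tagln and Myh11. Every probe set annotated to 1 of these symbols alone was taken, which gave 24 probe sets, 12 in each group of 5 genes, among 45037 probe sets tested and 18193 genes with a probe set of their own. RNA came from GFP-positive, propidium iodide-negative cells sorted by flow cytometry from Pax3GFP/+ mice of the C57BL/6J strain, in which GFP replaces 1 copy of Pax3. All groups carried this allele, and no other allele or treatment is named. The groups were postnatal day 1 (P1, 4 arrays) and day 12 (P12, 4 arrays), with proliferating satellite cells of trunk muscle, and day 28 (P28, 3 arrays), with satellite cells taken from the abdominal, pectoral and intercostal muscles. The arrays were labelled biological replicates, but the number of animals behind each was not stated, and the p-values measure only the spread between arrays. GFP reports activity of the Pax3 locus in whichever cell it occurs.

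Fibro-adipogenic progenitors are mesenchymal cells of the space between muscle fibres. They carry the receptor PDGFRα, lay down extracellular matrix and can become fibroblasts or adipocytes, and they supply signals to satellite cells. Pericytes cover capillaries, and smooth muscle cells wrap larger vessels. Both depend on PDGF-B from the endothelium acting on PDGFRβ, and smooth muscle cells build a contractile apparatus whose genes are switched on by serum response factor and its cofactors. Several genes of that apparatus, among them Acta2 and Tagln, are also transcribed in developing skeletal muscle.

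Values are log2 RMA intensities per probe set, and a difference of 1 is a doubling of the signal. A probe set was said to have risen or fallen when its Benjamini-Hochberg adjusted p, over all 45037 probe sets in limma's moderated test, was under 0.05. Shares over all probe sets or genes are of such calls, and none is given for counts at an unadjusted p. Those counts therefore cannot be set against a background, and no shift of a list is read from them. Errors of changes are standard errors (SE) of that fit, and errors of levels are SDs over arrays. Levels of different probe sets are not on 1 scale and were compared only across ages. The P28 arrays differed from the others in age, in the muscles taken and in a suffix of their internal names, and these cannot be told apart. Array medians were alike, from 5.50 to 5.52 at P28 and from 5.51 to 5.58 at P1 and P12, whereas the lowest value of an array was between 1.65 and 2.09 at P28 and between -0.78 and 0.48 at P1 and P12. The signal of the 3' Gapdh control probe set exceeded that of the 5' one by 0.79 to 0.99 at P28. At P1 and P12 the excess was 2.59 to 3.05 in replicates 1 and 2 and 1.32 to 1.69 in replicates 3 and 4, so 2 array sets differed in this sign of RNA length. Satellite cell genes were present throughout: Pax7 averaged 10.75 at P1, 10.78 at P12 and 10.72 at P28, and Myf5 averaged 10.49, 10.39 and 10.67 in the same order. Not all satellite cell genes were level: Chrdl2 averaged 8.28, 9.03 and 11.73, and Calcr 8.03, 8.79 and 9.37, in that order. Both rose at each step, and Megf10 fell at P28 against P12.

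Pdgfra, Rgs5 and Acta2 followed 3 different courses, described below, and their promoters are shown for that reason. Each window runs from 250 bases before to 50 bases after the annotated start, from RefSeq on the mouse build GRCm38.p6, written 5′ to 3′ on the gene's strand, and capitals mark matches to the E-box letters CAGCTG or the MCAT letters GGAATG on either strand. The windows lie at chr5:75152001-75152300 on the plus strand (Pdgfra), chr1:169655251-169655550 on the plus strand (Rgs5) and chr19:34255324-34255623 on the minus strand (Acta2).
Pdgfra: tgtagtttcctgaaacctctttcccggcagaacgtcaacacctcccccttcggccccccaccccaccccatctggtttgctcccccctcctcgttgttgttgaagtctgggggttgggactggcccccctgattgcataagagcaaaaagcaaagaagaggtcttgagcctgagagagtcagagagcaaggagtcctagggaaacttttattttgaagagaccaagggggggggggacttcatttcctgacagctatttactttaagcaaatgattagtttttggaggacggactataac
Rgs5: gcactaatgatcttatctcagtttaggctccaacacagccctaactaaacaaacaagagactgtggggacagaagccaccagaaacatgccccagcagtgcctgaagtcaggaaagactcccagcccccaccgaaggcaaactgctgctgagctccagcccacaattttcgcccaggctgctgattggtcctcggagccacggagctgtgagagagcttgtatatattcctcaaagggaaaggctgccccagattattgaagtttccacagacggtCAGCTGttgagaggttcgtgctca
Acta2: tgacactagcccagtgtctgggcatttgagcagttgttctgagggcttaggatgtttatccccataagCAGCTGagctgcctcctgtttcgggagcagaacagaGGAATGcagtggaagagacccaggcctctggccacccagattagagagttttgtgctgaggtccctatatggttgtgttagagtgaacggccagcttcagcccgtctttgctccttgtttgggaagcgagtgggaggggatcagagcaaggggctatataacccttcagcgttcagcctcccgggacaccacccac
Acta2 held CAGCTG at -182 and GGAATG at -146 relative to the start, and Rgs5 held CAGCTG at 27. The window of Pdgfra held neither. RefSeq windows were searched for 6 of the 10 genes, 8 windows in all with 3 for Gsn. Pdgfrb was left out of this search by its chromosome, a filter that was not applied to the windows behind the shares below. CAGCTG was in 5 of these 8, against 16.3% of the 32851 windows searched, and GGAATG was in 1 of 8, against 14.7%. The letters TATAAA were in 1 of 8, against 13.6%. The CArG box, the element of serum response factor, was searched as CC and GG around a core of 6 letters. With only A or T in the core it was in 0 of 8, against 1.63%. With 1 core letter allowed to be C or G, a spelling chosen after the sequences were seen, it was in 2 of 8, against 9.98%, and Acta2 held such matches at -84 and -34. The letters of the motifs do not overlap in these windows, and a match is a description of the letters in the window only.

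Among the fibro-adipogenic genes, Pdgfra, the receptor for PDGF-A and PDGF-C that defines these progenitors, was lowest at P12. Its brightest probe set, 1421917_at, read 8.16, 7.91, 7.80 and 7.81 at P1, then 6.30, 6.65, 6.75 and 6.18 at P12, then 9.47, 7.82 and 7.87 at P28. All P12 arrays lay below all arrays of both other ages, and P28 replicate 1 lay above every other array. The signal was 2.73-fold lower at P12 than at P1 (log2 change -1.45 ± 0.29, adjusted p = 0.0128) and 3.77-fold higher at P28 than at P12 (1.91 ± 0.31, adjusted p = 4.63e-04). At P28 it did not pass against P1 (0.46 ± 0.31, adjusted p = 0.275), and without P28 replicate 1 that change was -0.08. The fall at P12 passed in every alternative fit with a test, at -0.74 for the mean of all Pdgfra probe sets, and the rise at P28 was 1.37 without P28 replicate 1.

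The other Pdgfra probe sets were dim. Probe set 1438946_at read 5.20, 4.95, 5.15 and 4.88 at P1, 4.08, 4.55, 4.60 and 4.19 at P12, and 5.72, 5.14 and 5.31 at P28. It had the same low point: it fell at P12 against P1 (-0.69 ± 0.16, adjusted p = 0.0242) and rose at P28 against P12 (1.03 ± 0.17, adjusted p = 4.77e-04). The fall did not pass without P1 replicate 1 or 3 or without P12 replicate 1 or 4, with changes of -0.60 to -0.65. Probe set 1421916_at averaged 5.07 ± 0.61 at P1, 4.99 ± 0.29 at P12 and 6.01 ± 0.56 at P28 and did not change at P12. It rose at P28 against P12 (1.02 ± 0.31, adjusted p = 0.0223) and against P1 (0.94 ± 0.31, adjusted p = 0.0288), but without P28 replicate 1 these changes were 0.71 and 0.63 and did not pass. They also did not pass without P12 replicate 3 (0.88 against P12) or without P1 replicate 3 or 4 (0.74 and 0.81 against P1).

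Thy1 encodes CD90, a GPI-anchored surface glycoprotein of fibroblasts and other mesenchymal cells, and it had the largest change of the 5 genes at P28. It read 6.85, 6.28, 5.48 and 5.98 at P1, 8.14, 7.64, 6.96 and 7.19 at P12, and 10.71, 10.45 and 10.50 at P28. The ages did not overlap, and the order was P1, P12, P28 from low to high. Thy1 was 2.52-fold higher at P12 than at P1 (1.33 ± 0.27, adjusted p = 0.0149), 8.41-fold higher at P28 than at P12 (3.07 ± 0.30, adjusted p = 6.94e-06) and 21.2-fold higher at P28 than at P1 (4.40 ± 0.30, adjusted p = 1.74e-07). The P12 rise was just short of the threshold without P1 replicate 4 (1.28, adjusted p = 0.0517). Pdgfra and Thy1, both fibro-adipogenic markers, thus changed in opposite directions between P1 and P12.

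**Figure D1:**
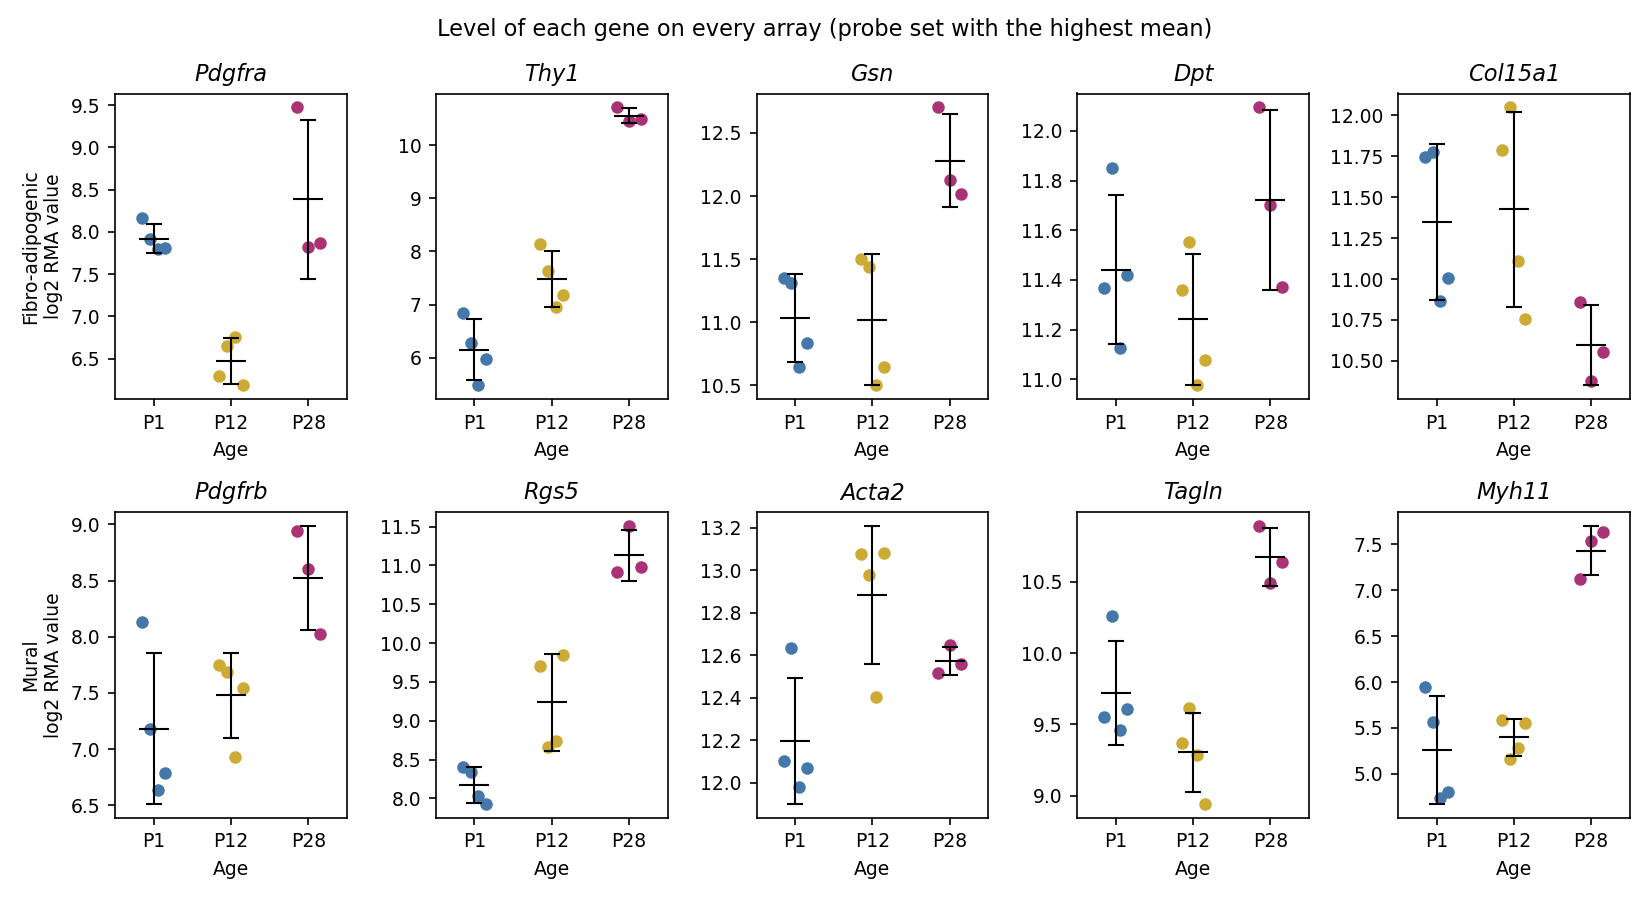
Level of the brightest probe set of each of the 10 genes (log2 RMA intensity) on every array, by age from P1 to P28, with fibro-adipogenic genes in 1 row and mural genes in the other. Points are arrays, and lines are means with SD; Pdgfra is lowest at P12, Thy1 and Rgs5 are higher at each later age, Dpt overlaps between all ages, and Col15a1 overlaps except that its P28 arrays lie just below its P1 arrays.

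Gsn encodes gelsolin, an actin-severing and capping protein abundant in fibroblasts. Probe set 1415812_at read 9.58, 9.15, 8.83 and 9.03 at P1, 9.03, 8.89, 9.16 and 9.43 at P12, and 12.34, 11.65 and 11.59 at P28. P1 and P12 overlapped, and every P28 array stood above them. Gsn was 6.66-fold higher at P28 than at P12 by this probe set (2.74 ± 0.21, adjusted p = 9.18e-07). The 3 brightest Gsn probe sets, all of the x_at kind that can bind related transcripts, rose less, by 1.18 to 1.43 against P12. On these probe sets P1 and P12 replicates 1 and 2 were brighter than replicates 3 and 4 at P1, and on 2 of 3 at P12. For 1436991_x_at the readings were 11.35, 11.31, 10.65 and 10.84 at P1, 11.50, 11.44, 10.50 and 10.64 at P12, and 12.70, 12.12 and 12.02 at P28. Of 2 dim Gsn probe sets, 1456568_at did not change, and 1456569_x_at fell at P28 to 5.01 ± 0.20, against 5.79 ± 0.27 at P12 (-0.78 ± 0.15, adjusted p = 0.00156). It was also lower than at P1 (-0.80 ± 0.15, adjusted p = 9.65e-04). The Gsn probe sets therefore disagreed in direction, and none changed between P1 and P12.

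The matrix genes Dpt and Col15a1 were bright at all ages and passed in no comparison. Dpt, which encodes the collagen-binding matrix protein dermatopontin, read 11.37, 11.85, 11.13 and 11.42 at P1, 11.36, 11.55, 10.98 and 11.08 at P12, and 12.09, 11.70 and 11.37 at P28. The ages overlapped, and P28 against P12 gave 0.48 ± 0.20 (adjusted p = 0.0932). Without P28 replicate 3 the change was 0.66 and passed. With the Gapdh 3' to 5' difference as a covariate it was 0.88 and passed, and P28 against P1 was 0.70 and passed. That difference was smaller on every P28 array than on any P1 or P12 array. Fits with this covariate, here and below, therefore cannot fully separate it from the P28 group. Col15a1, a basement membrane collagen found around fibroblasts, vessels and muscle fibres, read 11.74, 11.78, 10.86 and 11.01 at P1, 11.79, 12.05, 11.11 and 10.76 at P12, and 10.86, 10.37 and 10.55 at P28. Replicates 1 and 2 lay above replicates 3 and 4 at both P1 and P12. Against P12 the P28 change was -0.83 ± 0.30 (adjusted p = 0.0505), and against P1 it was -0.75 ± 0.30 (adjusted p = 0.0651), with all P28 arrays just below the P1 arrays. With the Gapdh 3' to 5' difference as a covariate the Col15a1 changes were 0.0049 against P12 and 0.14 against P1, neither of which passed. Other alternatives made them calls: P28 against P12 passed in 9 of 17 and P28 against P1 in 5 of 17. With quantile normalization the changes were -0.84 (adjusted p = 0.0150) and -1.04 (adjusted p = 0.00366), and with the replicate block -0.998 (adjusted p = 0.00385) and -0.92 (adjusted p = 0.00479). Leaving out P12 replicate 3 or 4 gave calls against P12 (-0.94 and -1.05), and leaving out P1 replicate 3 gave one against P1 (-0.91).

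Among the mural genes, Pdgfrb, the PDGF-B receptor of pericytes, was higher at P28. Probe set 1417148_at read 6.50, 6.54, 6.18 and 6.26 at P1, 6.93, 6.75, 6.55 and 6.62 at P12, and 7.99, 7.85 and 7.49 at P28. The P28 arrays stood apart from the rest, and every P12 array was above every P1 array by a narrow margin. Pdgfrb was 2.10-fold higher at P28 than at P12 (1.07 ± 0.15, adjusted p = 1.58e-04) and 2.66-fold higher at P28 than at P1 (1.41 ± 0.15, adjusted p = 1.02e-05), while P12 against P1 did not pass (0.34 ± 0.14, adjusted p = 0.197). The second probe set, 1436970_a_at, averaged 7.18 ± 0.67 at P1, 7.48 ± 0.37 at P12 and 8.52 ± 0.46 at P28. It also rose at P28, by 1.05 ± 0.32 against P12 (adjusted p = 0.0245) and 1.34 ± 0.32 against P1 (adjusted p = 0.00500). The first of these did not pass without P12 replicate 3 (0.86), P28 replicate 1 (0.84) or P28 replicate 2 (1.01).

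Rgs5, a regulator of G-protein signalling enriched in pericytes, had the largest rise of the mural genes at P28 against P1. Its brightest probe set, 1417466_at, read 8.40, 8.34, 8.03 and 7.93 at P1, 9.71, 8.67, 8.74 and 9.85 at P12, and 10.91, 11.51 and 10.98 at P28. The 3 ages did not overlap on it, and P12 replicates 1 and 4 stood above replicates 2 and 3. It was 2.09-fold higher at P12 than at P1 (1.07 ± 0.25, adjusted p = 0.0286), and 7.78-fold higher at P28 than at P1 (2.96 ± 0.27, adjusted p = 2.86e-06). The P12 rise did not pass when P1 replicate 2, 3 or 4, or P12 replicate 1 or 4, was left out, with changes of 0.86 to 1.12. The other 3 probe sets, averaged over arrays, were 0.67 to 0.72 higher at P12 than at P1 and did not pass. Of these, 1420940_x_at (0.72) passed with the array set as a block (adjusted p = 0.0169), with only the arrays of both ages (adjusted p = 0.0485), and without P12 replicate 2 (0.91). All 4 probe sets rose at P28, by 1.64 to 3.73 against P12 and 2.35 to 4.40 against P1. Probe set 1420942_s_at spanned the widest range, with 4.93, 4.32, 4.86 and 4.35 at P1, 5.51, 4.63, 4.86 and 6.13 at P12, and 8.52, 9.61 and 8.90 at P28.

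The contractile genes did not move together. Acta2, smooth muscle α-actin, read 12.10, 12.63, 11.98 and 12.07 at P1, 13.07, 12.97, 12.40 and 13.08 at P12, and 12.52, 12.65 and 12.56 at P28 on 1416454_s_at. P12 was 1.61-fold higher than P1 (0.69 ± 0.17, adjusted p = 0.0357), although P12 replicate 3 lay below P1 replicate 2. P28 passed neither against P12 (-0.31 ± 0.19, adjusted p = 0.240) nor against P1 (0.38 ± 0.19, adjusted p = 0.132). Against P1 it passed with the 3' to 5' covariate (0.68, adjusted p = 0.0372) and without P1 replicate 2 (0.52, adjusted p = 0.0349). Among fits leaving out 1 P1 or P12 array, the P12 rise passed only without P1 replicate 2 or P12 replicate 3, and the other changes were 0.62 to 0.66. Without P12 replicate 3 the P28 change against P12 was -0.47 and passed. The dim probe set 1456658_at had a different course, with 4.95 ± 0.22 at P1, 5.27 ± 0.16 at P12 and 4.42 ± 0.21 at P28. It fell at P28 against P12 (-0.85 ± 0.15, adjusted p = 8.90e-04) and against P1 (-0.54 ± 0.15, adjusted p = 0.0134), the last of which was -0.42 and did not pass without P28 replicate 2. The remaining Acta2 probe set, 1444105_at, ranged from 3.94 to 4.92 and did not pass, though without P28 replicate 1 its P28 change against P1 was 0.60, not 0.33, and passed (adjusted p = 0.0498).

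Tagln, which encodes the actin-binding protein transgelin (SM22α), read 9.55, 10.26, 9.46 and 9.61 at P1, 9.37, 9.61, 9.28 and 8.94 at P12, and 10.89, 10.49 and 10.64 at P28. Every P28 array was above every earlier one, and P1 and P12 overlapped. Tagln was 2.59-fold higher at P28 than at P12 (1.37 ± 0.20, adjusted p = 1.90e-04) and 1.94-fold higher at P28 than at P1 (0.96 ± 0.20, adjusted p = 0.00208). Myh11, the smooth muscle myosin heavy chain and the most specific marker of mature smooth muscle in the set, read 5.95, 5.56, 4.74 and 4.80 at P1, 5.58, 5.17, 5.28 and 5.56 at P12, and 7.13, 7.53 and 7.64 at P28 on 1448962_at. It was dim until P28 and was 4.10-fold higher there than at P12 (2.03 ± 0.26, adjusted p = 6.16e-05). Its other probe set, 1418122_at, ranged from 4.34 to 4.97 and did not change.

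**Figure D2:**
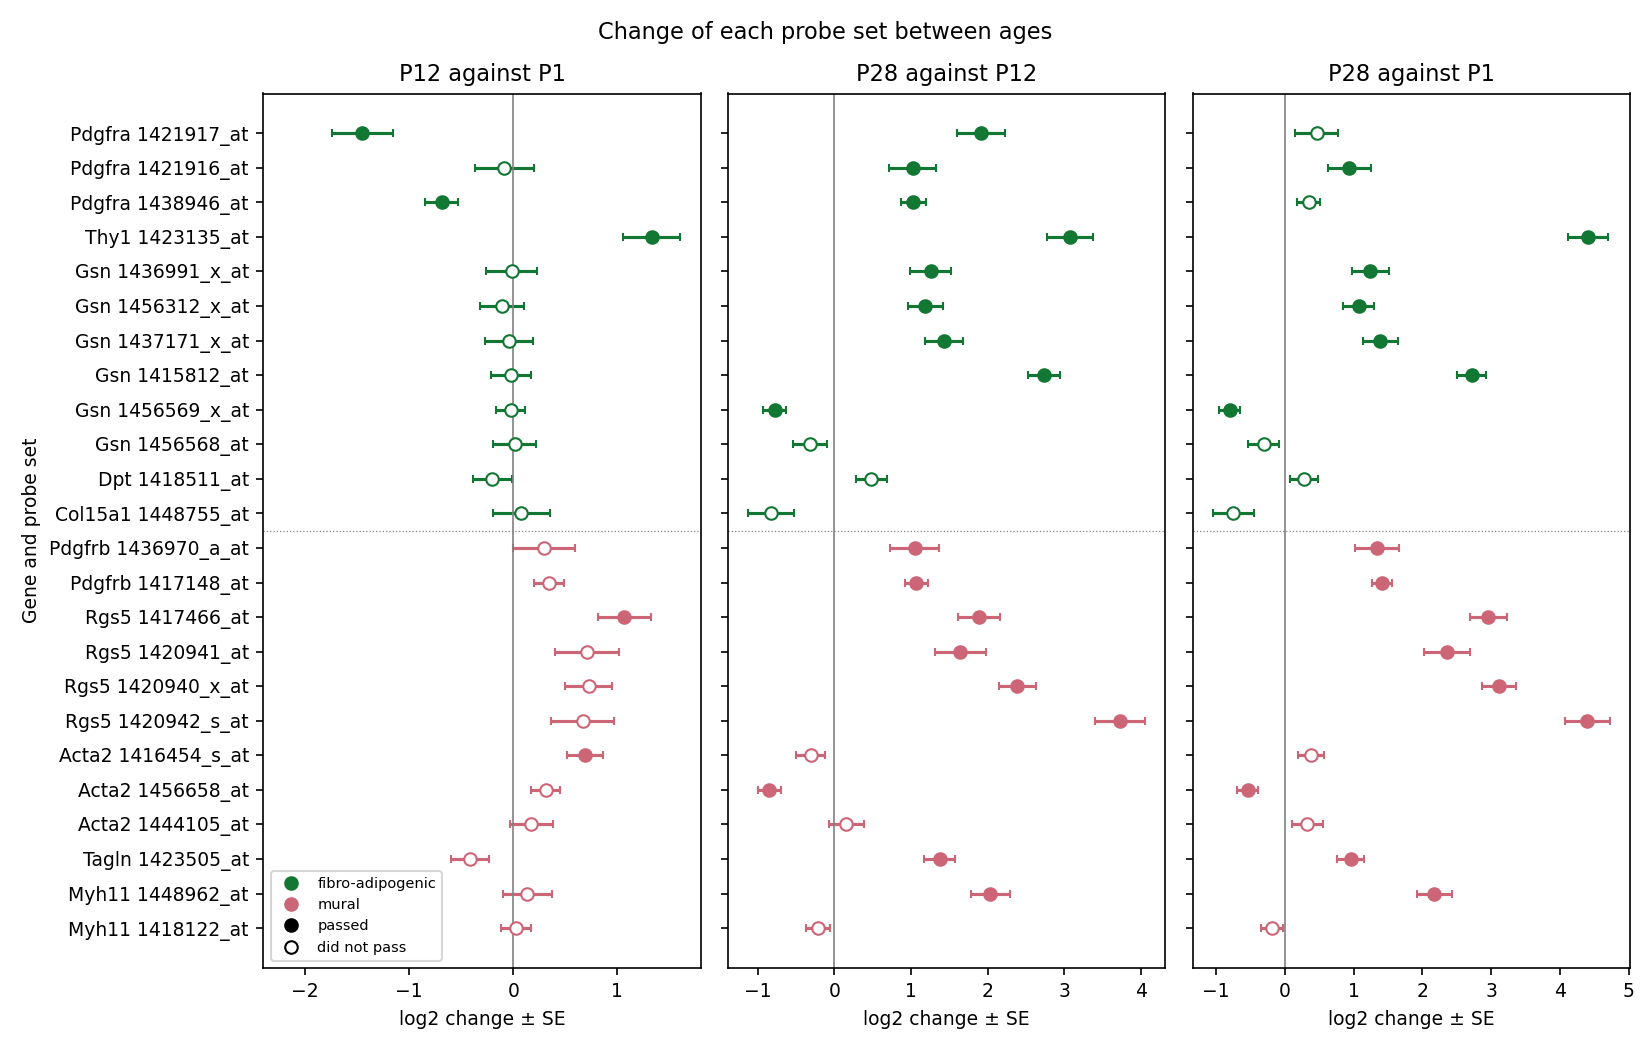
Log2 change of all 24 probe sets between ages, 1 panel for each of the 3 comparisons, with SE bars from the limma fit. Filled points passed at an adjusted p under 0.05; Rgs5 and Thy1 lie furthest right in both P28 panels, and the 3 Pdgfra probe sets change sides between P12 against P1 and P28 against P12.

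Between P1 and P12, 1 fibro-adipogenic probe set rose and 2 fell, of 12, and 2 mural probe sets rose and 0 fell, of 12 (limma). At an unadjusted p under 0.05, 7 mural probe sets were higher and 1 lower. The 7 were of Rgs5, Acta2 and Pdgfrb only, and the lower one was of Tagln. Over all probe sets, 3.25% rose and 1.59% fell in that comparison by adjusted p, which is no background for the unadjusted counts. The median change was -0.03 in the fibro-adipogenic group, 0.33 in the mural group and 0.0067 over all probe sets. The 5 probe sets that passed did so also with the array set as a block, and their changes had the same direction within each set. Within replicates 1 and 2, and then within replicates 3 and 4, Pdgfra 1421917_at changed by -1.56 and -1.34, Thy1 by 1.32 and 1.34, Rgs5 1417466_at by 0.82 and 1.31 and Acta2 1416454_s_at by 0.66 and 0.72. A further quantile normalization moved the share of rises among all calls to 51.8%, against 67.1% in the deposited scale.

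At P28 against P12, 8 probe sets rose and 1 fell in each group of 12, against 13.5% and 15.9% of all probe sets. Median changes were 1.11 in the fibro-adipogenic and 1.22 in the mural group, and -0.05 over all probe sets. At P28 against P1, 6 fibro-adipogenic probe sets rose and 1 fell, and 8 mural probe sets rose and 1 fell, against 17.6% and 17.4% of all. The medians were 0.70, 1.38 and -0.05 in the same order. The 3 comparisons share arrays, and several probe sets of 1 gene are not independent members. By the brightest probe set of each gene, 3 of 5 fibro-adipogenic and 4 of 5 mural genes rose at P28 against P12, and 2 and 4 of 5 rose at P28 against P1. Backgrounds for 1 probe set per gene were 15.5% and 19.9%. In these bulk preparations a change in the number of cells of a type cannot be told apart from a change in RNA per cell.

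The ligands of the PDGF receptors moved in both directions. Pdgfc, a PDGFRα ligand, averaged 9.91 at P1, 8.62 at P12 and 6.69 at P28 and fell at both steps (-1.29 ± 0.23, adjusted p = 0.00728, then -1.92 ± 0.25, adjusted p = 8.72e-05). Pdgfa, the other PDGFRα ligand of the set, fell at P28 to 9.30, against 10.10 at P12 (-0.80 ± 0.18, adjusted p = 0.00361). Pdgfb, the ligand of PDGFRβ, rose at P12 to 6.36, against 5.51 at P1 (0.84 ± 0.21, adjusted p = 0.0318). Pdgfd, which also binds PDGFRβ, was dim and rose at P28 to 4.83, against 3.79 at P12 (1.04 ± 0.21, adjusted p = 0.00204). Thus of 4 ligands, 1 rose and 1 fell at P12 against P1, and 1 rose and 2 fell at P28 against P12. Over all genes these shares were 3.94% and 1.85%, and 15.5% and 15.4%.

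Further fibroblast and fibro-adipogenic genes were measured for 26 of 29 listed symbols, with the brightest probe set of each. In P12 against P1, 0 rose and 5 fell in limma, where 3.94% and 1.85% of all genes did, with a median of -0.19. At an unadjusted p under 0.05, 3 were higher and 7 lower. The 3 largest falls were of Fap, a fibroblast surface protease (8.07 at P12 and 9.17 at P1, -1.09 ± 0.22, adjusted p = 0.0122), Mgst1, a microsomal glutathione transferase (-1.02 ± 0.27, adjusted p = 0.0477), and Mfap5, a microfibril glycoprotein (-1.01 ± 0.27, adjusted p = 0.0473). Cd34 (-0.60) and Gli1 (-1.01) also fell and are named here after their values were seen. At P28 against P12, 15 rose and 1 fell, against 15.5% and 15.4% of all genes, with a median of 1.06. Cxcl14, a chemokine, rose to 8.09 at P28, against 4.47 at P12 (3.63 ± 0.25, adjusted p = 4.56e-07). Mfap5 rose by 2.95 ± 0.29 (adjusted p = 8.53e-06) and Pi16, a marker of adventitial fibroblasts, by 2.90 ± 0.38 (adjusted p = 7.58e-05). The 1 that fell, Tcf7l2 (-0.76), was named after its value was seen. At P28 against P1, 14 rose and 3 fell, against 19.9% and 16.3%, and the 3 that fell, Fap, Gli1 and Tcf7l2, were also named after their values were seen. Igfbp6, which binds insulin-like growth factor II, rose by 2.59 ± 0.34 there (adjusted p = 5.93e-05). Mfap5 had the same low point at P12 as Pdgfra, with means of 7.69 at P1, 6.68 at P12 and 9.63 at P28.

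Of 16 further pericyte genes, 1 rose and 1 fell at P12 against P1, 8 rose and 0 fell at P28 against P12, and 9 rose and 2 fell at P28 against P1 (limma). Over all genes 3.94% rose and 1.85% fell in the first comparison, 15.5% and 15.4% in the second and 19.9% and 16.3% in the last. At an unadjusted p under 0.05, 9 were higher and 0 lower at P28 than at P12. Vtn, the adhesive glycoprotein vitronectin made by pericytes, rose at each step, with means of 5.58 at P1, 6.47 at P12 and 9.26 at P28 (0.89 ± 0.22, adjusted p = 0.0330, then 2.79 ± 0.24, adjusted p = 2.35e-06). Kcnj8, a subunit of an ATP-sensitive potassium channel, rose by 1.75 ± 0.25 at P28 against P12 (adjusted p = 1.77e-04), and Anpep, aminopeptidase N, by 1.74 ± 0.25 (adjusted p = 1.65e-04). Cspg4, the NG2 proteoglycan, went the other way at P12, with 7.91 against 8.64 at P1 (-0.74 ± 0.15, adjusted p = 0.0140), and it fell with Gucy1b1 at P28 against P1 (-1.02 and -0.61, Gucy1b1 named after its value was seen). Of 15 further smooth muscle genes, 0 rose and 0 fell at P12 against P1 in limma, and 3 were higher and 2 lower at an unadjusted p under 0.05. At P28 against P12, 8 rose and 1 fell, against 15.5% and 15.4% of all genes. At P28 against P1, 9 rose and 0 fell, against 19.9% and 16.3%, and 10 were higher and 1 lower at an unadjusted p under 0.05. Myl9, the regulatory light chain of smooth muscle myosin, rose at P28 to 9.69, against 7.28 at P12 (2.41 ± 0.25, adjusted p = 1.25e-05). Mylk, the kinase of that light chain, rose by 2.03 ± 0.25 (adjusted p = 5.70e-05), and Actg2, the enteric smooth muscle actin, by 1.63 ± 0.17 (adjusted p = 1.51e-05) to a dim 5.06, against 3.43 at P12. The 1 that fell, Itga8 (-0.49), was named after its value was seen.

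**Figure D3:**
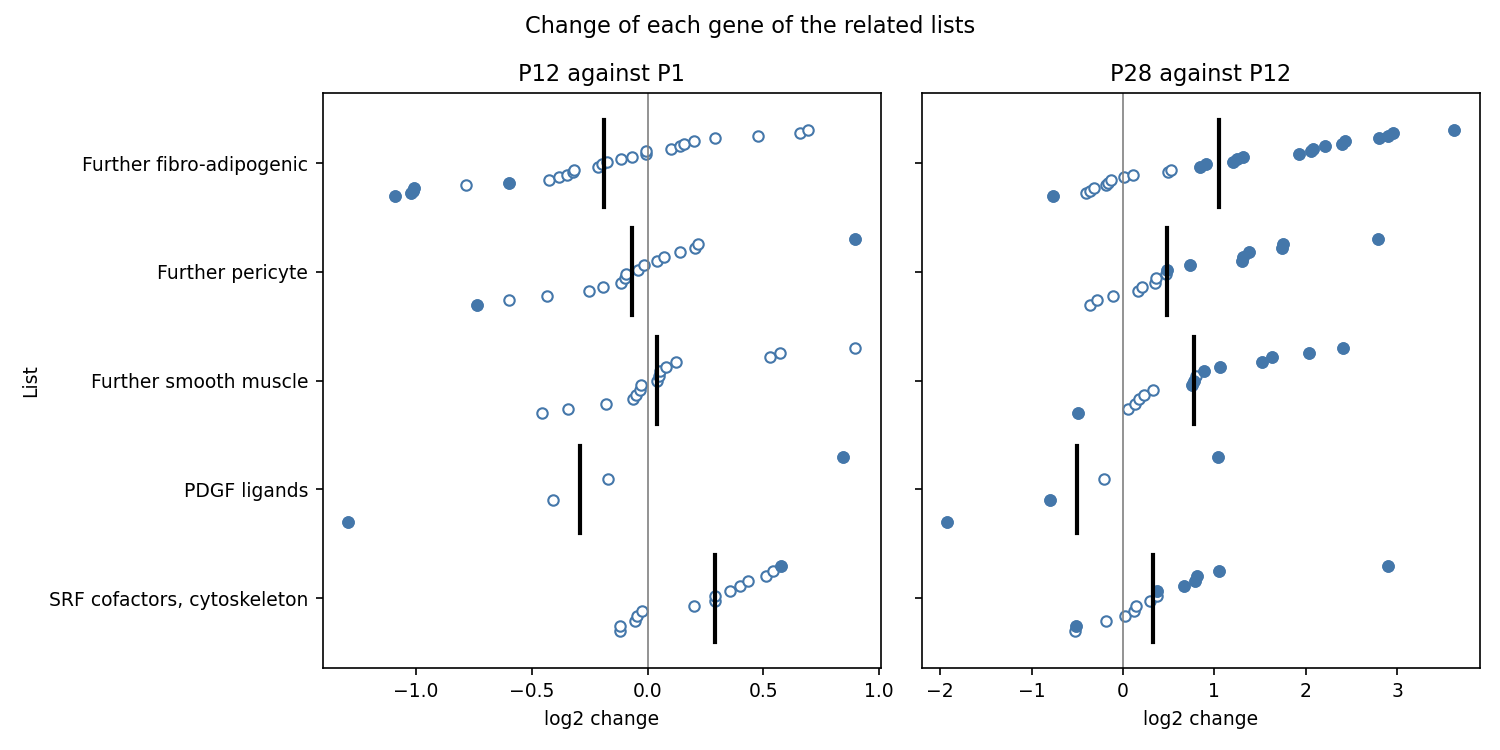
Log2 changes at P12 against P1 and at P28 against P12 of the genes of 5 related lists: further fibro-adipogenic, pericyte and smooth muscle genes, PDGF ligands, and serum response factor (SRF) cofactors with cytoskeletal targets. Points are genes by their brightest probe set, filled points passed, and black lines are list medians; Cxcl14 and Vtn are the furthest right of the fibro-adipogenic and pericyte lists at P28 against P12, and Pdgfc is the furthest left of the ligands.

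Cofactors of serum response factor and cytoskeletal targets were measured as a list of 14. In P12 against P1, 1 rose and 0 fell in limma, against 3.94% and 1.85% of all genes, and 5 were higher and 0 lower at an unadjusted p under 0.05. The one that rose was Actb; this cytoplasmic β-actin reached 12.97 at P12, against 12.39 at P1 (0.58 ± 0.15, adjusted p = 0.0458). At P28 against P12, 6 rose and 1 fell (Mrtfb, a cofactor, -0.51, named after its value was seen), against 15.5% and 15.4% of all genes. Ccn2, a secreted matricellular protein, rose to 10.62 at P28, against 7.72 at P12 (2.90 ± 0.40, adjusted p = 1.17e-04). Tpm1, a tropomyosin, rose by 1.05 ± 0.18 (adjusted p = 6.11e-04), and Tagln2, a relative of Tagln, by 0.81 ± 0.17 (adjusted p = 0.00269). Srf itself was bright and did not change, with means of 10.99 at P1, 10.96 at P12 and 11.08 at P28. Myocd, the cofactor restricted to smooth and cardiac muscle, was dim and did not change, with 4.60, 4.26 and 4.43 in the same order. Acta1, the skeletal actin, rose by 2.21 ± 0.27 at P28 against P12 (adjusted p = 4.82e-05), so Acta1 and Acta2 did not share a course on their brightest probe sets. Actc1, another sarcomeric actin, averaged 11.71 at P1, 12.20 at P12 and 11.67 at P28 and passed in no comparison. Its highest mean was at P12, as for Acta2. The Acta2 probe set is of the s_at kind, and signal from related actins on it was not tested.

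Genes of other cell types moved in the same samples, and their part in the members' changes was not tested. At P28 against P12, 15.5% of all genes rose and 15.4% fell, which is the share to set beside each count here. At P28 against P12, 9 of 10 endothelial genes rose. Their summed level, as log2 of the sum of unlogged signals, was 9.38 to 10.2 at P1, 9.73 to 10.3 at P12 and 11.3 to 12.0 at P28. Emcn (endomucin) rose by 2.65 ± 0.29 (adjusted p = 1.82e-05), and Cdh5 (VE-cadherin) by 2.58 ± 0.34 (adjusted p = 7.95e-05). Of 10 macrophage genes, 5 rose, with summed levels of 11.6 to 12.6 at P28 and 10.2 to 10.5 at P12, and Lyz2 (lysozyme) rose by 4.04 ± 0.25 (adjusted p = 1.65e-07). Of 10 genes of differentiated muscle, 7 rose and 2 fell (Myh3 and Myh8), with summed levels of 15.2 to 15.7 at P28 and 13.5 to 14.4 at P12. Myh4 rose by 4.25 ± 0.44 (adjusted p = 1.15e-05), Ckm by 3.96 ± 0.34 (adjusted p = 2.32e-06) and Tnnt3 by 2.77 ± 0.27 (adjusted p = 8.20e-06). Of 6 tenocyte genes, 4 rose, with Thbs4 (thrombospondin 4) up by 1.93 ± 0.26 (adjusted p = 9.80e-05). Of 5 measured adipocyte genes of 7 listed, 3 rose. Fabp4, a fatty acid binding protein of adipocytes and also of endothelium, rose by 2.29 ± 0.28 (adjusted p = 4.78e-05), while Adipoq, the hormone of adipocytes, rose to only 4.54 at P28, against 3.07 at P12. In these 4 lists of endothelial, macrophage, tenocyte and adipocyte genes, 0 fell in limma and 0 were lower at an unadjusted p under 0.05. Of 6 measured Schwann cell genes of 8 listed, 0 rose and 1 fell in limma, Erbb3 (-0.87 ± 0.16, adjusted p = 0.00114). At an unadjusted p under 0.05, 1 was higher and 2 were lower. Of 10 satellite cell and myoblast genes, 3 rose and 1 fell (Megf10), with summed levels of 13.9 to 14.2 at P28 and 13.4 to 13.9 at P12. Chrdl2 rose most, by 2.70 ± 0.15 (adjusted p = 7.95e-08). With so few genes these counts give no firm comparison with the share over all genes.

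In P12 against P1, 3.94% of all genes rose and 1.85% fell in limma. Of 10 endothelial genes 0 rose and 0 fell, also at an unadjusted p under 0.05. All 10 endothelial changes were positive, as were 9589 of 18193 over all genes, with medians of 0.31 and 0.015. The 10 genes were read on the same arrays, so their signs are not independent. Of 10 macrophage genes 0 rose and 1 fell, Cd68 (-1.38 ± 0.22, adjusted p = 0.00354), and 0 were higher and 5 lower at an unadjusted p under 0.05. At P28 the fibro-adipogenic and vascular or immune lists had different orders over arrays. The mean of the 5 fibro-adipogenic members was 11.17 in P28 replicate 1, against 10.49 and 10.46 in replicates 2 and 3. The endothelial mean was lowest in that replicate, at 7.72 against 8.44 and 8.03, and so was the macrophage mean, at 7.35 against 8.13 and 8.48. The mean of the 5 mural members was nearly level over these arrays, from 9.97 to 10.16.

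**Figure D4:**
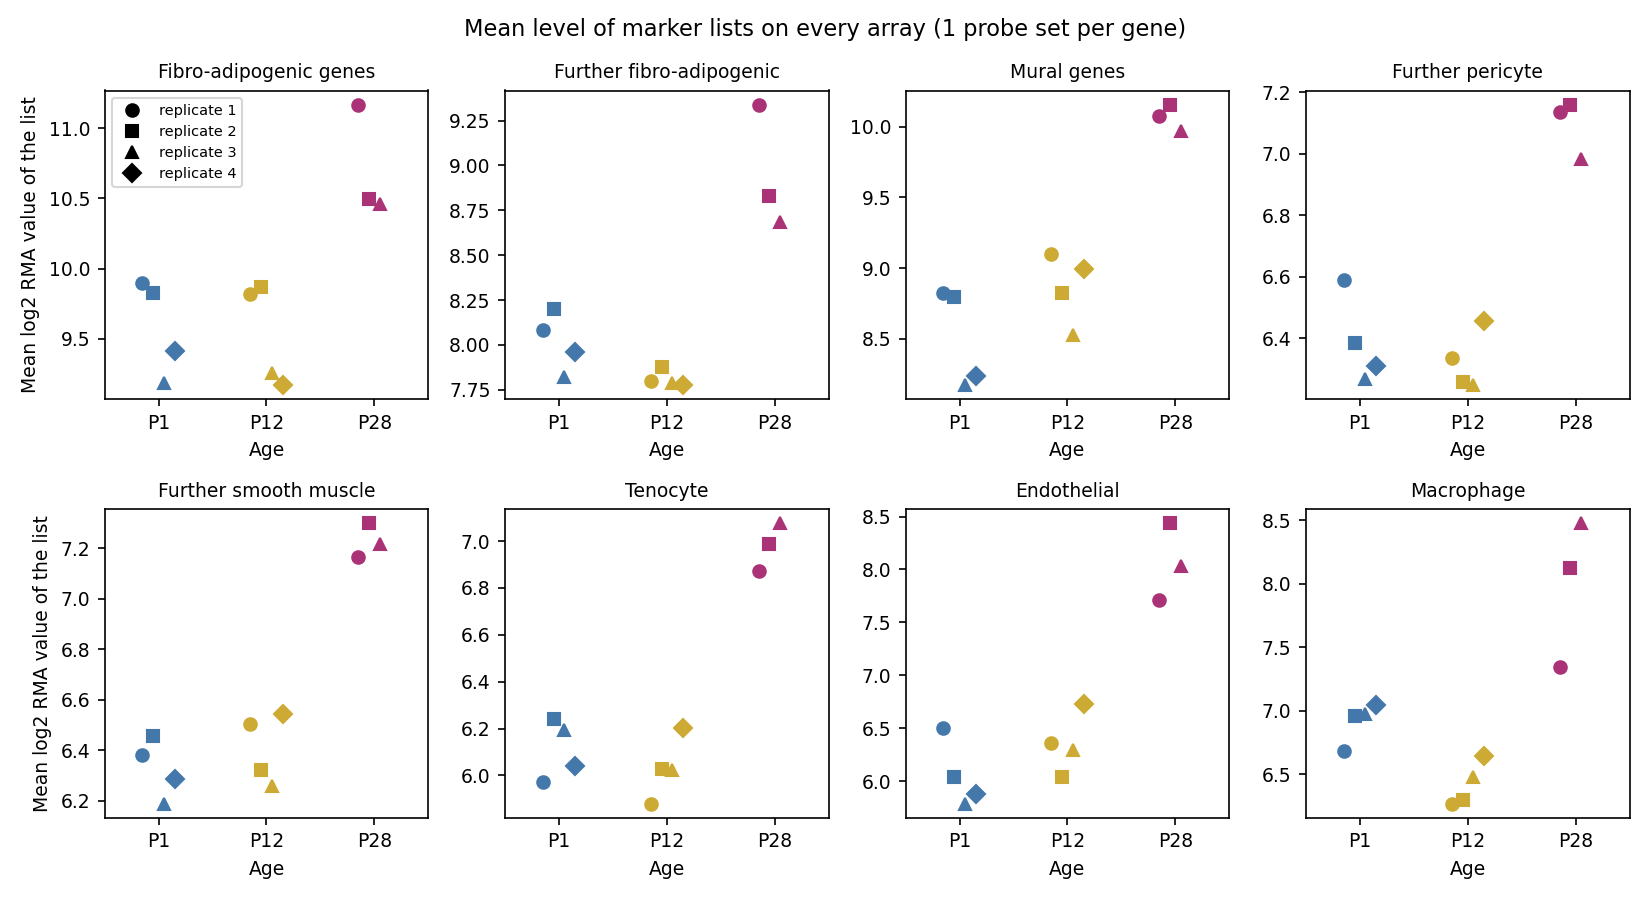
Mean log2 RMA level of 8 marker lists (genes by their brightest probe set) on every array, by age from P1 to P28. Points are arrays, with a symbol for each replicate number; P28 replicate 1 is the highest P28 array for the fibro-adipogenic lists and the lowest for the endothelial and macrophage lists.

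Within ages, the median correlation was higher among the fibro-adipogenic members than among the mural ones, with ranges that overlapped. As a description, deviations from the age means of the brightest probe sets over 11 arrays had a median Pearson r of 0.62 (0.19 to 0.91) over the 10 fibro-adipogenic pairs, 0.40 (-0.34 to 0.59) over the 10 mural pairs and 0.39 (-0.43 to 0.82) over the 25 pairs between groups. The array sets that differed in Gapdh 3' to 5' signal did not weigh equally on these pairs. Thy1, Gsn, Col15a1 and the mural gene Pdgfrb were higher in replicates 1 and 2 than in replicates 3 and 4 at both P1 and P12. The other members were not so at both ages. The part of the array sets in these correlations was not tested. Over the 11 arrays, with ages included, the genes most like each member were sought among 17329 probe sets with 1 symbol and a mean of at least 6. Pdgfra was most like Col14a1 and Ogn, a fibril-associated collagen and a small leucine-rich proteoglycan of connective tissue (both r = 0.95), whose means were also lowest at P12: Ogn averaged 8.48 at P1, 6.99 at P12 and 9.14 at P28. Thy1 was most like Nr4a3 and Sgk1 (both r = 0.99). Rgs5 was most like Mgll and Eng (both r = 0.99), and Eng encodes endoglin, a co-receptor of TGF-β on endothelium. Tagln and Dpt each had Pcolce, the procollagen C-proteinase enhancer, among their nearest 2 (r = 0.97 and r = 0.95). Acta2 was most like Fh1 and Cox5b, mitochondrial enzymes (both r = 0.98), and Myh11 most like Dtx3l and Slc35e4 (both r = 0.99). Gsn was nearest to Sema4b and Ltbp4 (r = 0.98 and r = 0.97), Col15a1 to Grn and Oga (both r = 0.98), and Pdgfrb to Camk2n1 and Map1lc3b (both r = 0.97).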

How the data were processed

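The 11 arrays were Affymetrix mouse expression arrays, with RNA labelled per the labels' protocols from small amounts of RNA with NuGEN kits. The values are log2 intensities per probe set as deposited, and per the submitters' processing notes Affymetrix Expression Console, RMA and affy were used, with no versions given. Of 45101 probe sets, 64 manufacturer controls were left out. Group means were fitted over all 11 arrays with limma 3.58.1 in R 4.3.3 (lmFit, contrasts, eBayes, two-sided), p-values were adjusted by Benjamini-Hochberg over 45037 probe sets, and a call needed an adjusted p under 0.05. The procedure was run on simulated data with independent noise for each probe set and array. That simulation did not include the difference between array sets, so it does not speak to it. Symbols came from GEO's platform annotation, with 34945 probe sets of 1 symbol. In gene lists the probe set with the highest mean stood for a gene. The rule for naming genes took up to 3 per list and comparison with the largest changes that passed, and the 2 most correlated with each member. Not all genes of the rule are printed. Pax7, Myf5, Srf, Myocd, Actc1 and Myh3 were named outside it, as were the genes marked as named after their values were seen. The members and lists were chosen with earlier results of these data known. Same-numbered P12 and P1 arrays deviated together (r of 0.14 to 0.31 in 4 pairs), so the replicate block was fitted as an alternative. Different-numbered arrays of 1 array set did so as strongly (0.14 to 0.25 in 4 pairs), arrays of different sets did not (-0.29 to -0.11 in 8 pairs), and 4 of 8 arrays correlated best with their own number, so numbers and array sets are not separable as the source. No 2 arrays were identical. The number of arrays limits the precision. Alternatives covered scale, filters, probe set summaries, weights, blocks, a 3' to 5' covariate and leaving out each array.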

Additional observations from a re-analysis of the deposited data

Results flagged for a closer look

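Of 48 groups of 4 arrays (24 probe sets at P12 and at P1), 1 held an array far from the other 3 by Dixon's ratio, and chance flags about 1 group in 20. It was Acta2 on 1416454_s_at at P12, where replicate 3 read 12.40 and the nearest other P12 array read 12.97. Without that array Acta2 at P12 was higher than at P1 by 0.85.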

How the results depend on the processing

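Numbers of probe sets that rose did not move by more than 1.5 times in any alternative that kept all arrays and every probe set as its own value. No counts were made for the alternatives with 1 value per gene. No value that passed changed sign. The fibro-adipogenic falls at P28 against P12 were 2, not 1, with median centring, quantile normalization, array weights, the replicate block or without dim probe sets (mean under 5). At P28 against P1 they were 2 with quantile normalization, with only the 2 ages compared, with the replicate block or without dim probe sets. Without dim probe sets 1 fell at P12 against P1, and 0 mural probe sets fell in both P28 comparisons. The 3' to 5' covariate also left 0 mural falls at P28 against P1. The added fibro-adipogenic fall with the replicate block was Col15a1, at -0.998 against P12 and -0.92 against P1. The replicate block changed no member's call in P12 against P1, and P28 arrays share only a number with the others (r of -0.12 to 0.09). With the mean of all its probe sets, Rgs5 at P12 was 0.79 higher and Acta2 0.39 higher than at P1, and neither passed. Leaving out 1 array gave 1 to 2 fibro-adipogenic falls in each comparison, and 0 to 1 rises at P12 against P1, 7 to 9 at P28 against P12 and 5 to 6 at P28 against P1. For mural probe sets it gave 0 to 2, 7 to 8 and 8 to 9 rises in that order, and 0, 1 to 2 and 0 to 1 falls. Of 1173 tested alternative values of single probe sets, 28 lost and 25 gained a call, and 47 changed sign without passing either way. The causes were not tested. Dim probe sets near the background limit what can be said of Myh11 before P28.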
